A study of Mus musculus with 6 samples.

Results

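The 78 mitochondrial ribosomal protein genes are the rows of a mouse leukemia count table whose Entrez identifiers map to protein-coding symbols beginning with Mrpl or Mrps and a digit. They comprise 49 Mrpl and 29 Mrps genes of the 26286 genes in the table, and the rule that takes them uses symbols and no measured value. They were followed in 3 RNA sequencing libraries from mice fed doxycycline (dox) for 3 days and in 3 libraries from untreated mice. Every library came from tri-transgenic leukemia A024, sorted from marrow of leukemic Rag1 knockout mice, which have no mature T or B cells of their own. The dox libraries hold GFP-mid cells, labelled as Pax5 restoration, and the untreated libraries hold GFP-high cells. The design text assigns 1 mouse to each library, so the replicates are animals with 1 shared leukemia and p-values describe the spread among those animals. No animal without the transgenes received dox here, so dox itself, the GFP gate and Pax5 cannot be told apart.

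Mitochondrial ribosomes are assembled from ribosomal RNAs encoded in the mitochondrial genome and from proteins encoded in the nucleus, which are translated in the cytosol and imported. They make the core membrane subunits of the respiratory chain and of ATP synthase, and growing lymphoid cells depend on them. The small subunit reads the messenger RNA, and the large subunit forms peptide bonds and passes the new chain to the inner membrane. Some of the proteins have counterparts in the bacterial ribosome and others do not. Doxycycline is a tetracycline, a class of antibiotics that binds bacterial ribosomes and is also known to slow protein synthesis in mitochondria.

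Library totals ran from 14185203 to 15612435 counts, and 12275 genes passed the filter on low counts. Pax5, the factor that commits progenitors to the B lineage, reached 227, 281 and 231 CPM (counts scaled to a common library size) in the dox libraries, against 154, 93.5 and 105 CPM in the untreated libraries. The groups did not overlap, with a log2 fold change of 1.07 (SE 0.17, adjusted p = 0.000695), while the exact two-sided permutation test over the 6 libraries gave 0.1, the smallest p that 3 against 3 allows. Summed B progenitor markers ran from 8290 to 8883 CPM in the dox libraries and from 6041 to 6189 CPM in the untreated libraries, with 7 of 9 markers higher and 1 lower. Macrophage markers summed to between 28.9 and 37.7 CPM in the dox libraries and between 6.91 and 12.6 CPM in the untreated libraries, with 7 of 8 higher. Neutrophil markers summed to 532.5, 114.8 and 253 CPM in dox libraries 1 to 3 and to between 89.1 and 114.6 CPM in the untreated libraries, with 8 of 9 higher. Stromal and endothelial markers summed to between 129.8 and 160.7 CPM in the dox libraries and between 94.7 and 102.9 CPM in the untreated libraries, with 2 of 6 higher. T cell markers summed to between 84.1 and 132.5 CPM in the dox libraries and between 266.2 and 346.2 CPM in the untreated libraries, with 1 of 7 lower and Cd3e and Cd8a at 0, and no erythroid marker of 7 was called, at sums of 1.25 to 7.31 CPM in the dox libraries and 3.82 to 5.31 CPM in the untreated libraries.

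Most mitochondrial ribosomal protein genes had lower RNA levels after 3 days of dox, and none was called higher. Of the 78 genes, all of which passed the low-count filter, 51 (65.4%) fell at an adjusted p under 0.05 in the edgeR fit over all genes, 0 rose and 27 were not called. Over all 12275 genes tested, 26.6% fell, 27.0% rose and 53.6% were called in either direction. At an unadjusted p under 0.05, 0 members were higher by edgeR, by DESeq2 and by limma voom. At the stricter adjusted p under 0.05, 27.0%, 24.8% and 26.6% of all genes tested were higher by these tests, in that order. The median log2 fold change of the members was −0.35, with a range of −0.86 to 0.08, beside a median of 0.01 for all genes tested. Bulk RNA does not separate fewer cells of a type from less RNA per cell.

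The shift was broad and modest in size. The fold change was negative for 74 members and positive for 4. Among the 51 called members the mean dox level was between 54.9% and 84.8% of the mean untreated level, and 30 of them were below 75%. With a required change of more than 1.2-fold (glmTreat), 32 members fell, beside 16.9% of all genes tested. None fell 2-fold or more, a size that 3.86% of all genes tested reached as called falls. In 62 members all 3 dox libraries lay below all 3 untreated libraries, a pattern that 31.0% of all genes tested showed, and in 0 members did all dox libraries lie above, which 31.2% of all genes tested showed. Among the 27 members that were not called, 11 had groups that did not overlap and 16 had groups that did.

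Summed over the 78 genes, the members reached 2584, 2415 and 2663 CPM in dox libraries 1 to 3, against 3345, 3134 and 3198 CPM in untreated libraries 1 to 3. The highest dox sum was below the lowest untreated sum. Dox library 2 was the lowest dox library in 34 of the 51 called members, and untreated library 1 was the highest untreated library in 32 of them. Without dox library 2, 48 members were called lower, beside 25.7% of all genes tested, and without untreated library 1, 44, beside 24.4%. Dox library 1 had the highest neutrophil marker sum. Without it 45 members were called lower, beside 23.5% of all genes tested, and the median log2 fold change over all 78 members was −0.37. Neutrophil markers still summed to 253 CPM in dox library 3, so leaving out 1 library does not separate their part. The part that cell type markers, those of neutrophils included, play in these differences was not tested.

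**Figure D1:**
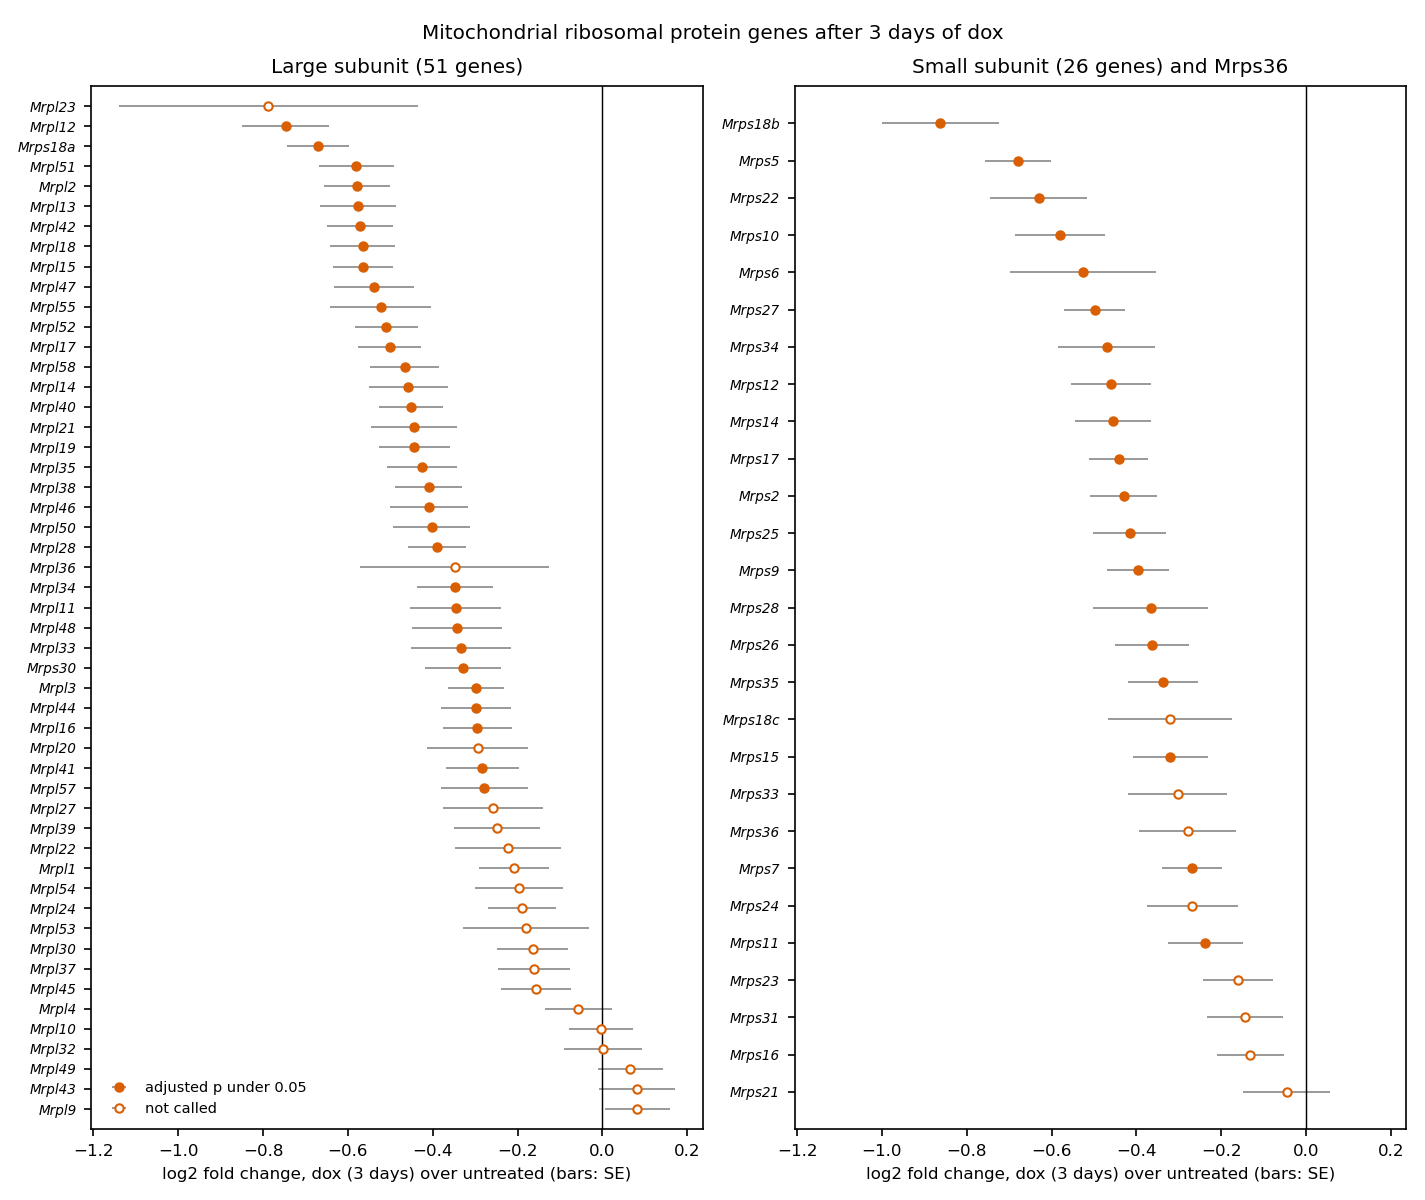
Log2 fold change of each gene, dox over untreated (x axis), with its standard error as a bar, for the 51 large subunit genes on the left and the 26 small subunit genes and Mrps36 on the right (y axis: genes, sorted). Filled points passed an adjusted p of 0.05, and no filled point lies right of 0.

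Promoter windows show the sequence from which some of these genes start, and what short motifs they share. RefSeq gave 75 promoter windows for 69 of the 78 members, each window running from 250 bases before to 50 bases after a start, on build GRCm38.p6. The other 9 are Mrpl13, Mrpl15, Mrpl19, Mrpl38, Mrpl4, Mrpl54, Mrps28, Mrps34 and Mrps35. The windows were searched on both strands for the letters given here. They are given as motifs of factors named in studies of nuclear genes for mitochondrial proteins and of ribosomal protein genes. A motif counted for a gene if any of its windows held it, and the 9103 tested genes with a promoter had 11507 windows. The 6 windows below, cut to 200 bases before and 30 bases after the start, belong to the 5 of the 8 largest called falls that hold a motif and to Mrpl9, the member with the highest fold change. All are written 5′ to 3′ along the gene's own strand, and capitals mark the motif match.
Mrpl12, chr11:120484437-120484666, plus strand: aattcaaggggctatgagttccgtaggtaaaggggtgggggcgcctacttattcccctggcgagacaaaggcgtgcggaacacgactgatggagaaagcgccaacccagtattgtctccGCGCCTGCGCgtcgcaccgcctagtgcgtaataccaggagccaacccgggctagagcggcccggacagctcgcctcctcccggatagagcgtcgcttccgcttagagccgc
Mrps18a, chr17:46110804-46111033, plus strand: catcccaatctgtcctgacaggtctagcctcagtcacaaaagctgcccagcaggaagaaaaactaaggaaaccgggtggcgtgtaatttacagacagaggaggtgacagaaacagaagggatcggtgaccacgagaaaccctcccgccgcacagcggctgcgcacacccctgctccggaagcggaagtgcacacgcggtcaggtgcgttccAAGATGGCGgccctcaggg
Mrps22, chr9:98601650-98601879, minus strand: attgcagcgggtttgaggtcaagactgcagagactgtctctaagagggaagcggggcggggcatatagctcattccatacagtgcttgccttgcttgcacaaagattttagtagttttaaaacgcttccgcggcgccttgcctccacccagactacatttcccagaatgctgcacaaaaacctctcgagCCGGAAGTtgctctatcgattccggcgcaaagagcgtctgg
Mrpl51, chr6:125192000-125192229, plus strand: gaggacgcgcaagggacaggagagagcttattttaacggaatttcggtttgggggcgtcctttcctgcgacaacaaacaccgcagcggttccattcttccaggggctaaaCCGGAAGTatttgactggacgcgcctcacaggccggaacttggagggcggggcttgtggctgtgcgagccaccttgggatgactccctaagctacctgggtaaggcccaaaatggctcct
Mrpl2, chr17:46646021-46646250, plus strand: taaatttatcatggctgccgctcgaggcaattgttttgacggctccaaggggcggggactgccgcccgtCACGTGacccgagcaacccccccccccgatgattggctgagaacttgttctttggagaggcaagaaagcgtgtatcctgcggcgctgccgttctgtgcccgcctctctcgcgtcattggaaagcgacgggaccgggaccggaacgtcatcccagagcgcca
Mrpl9, chr3:94443136-94443365, plus strand: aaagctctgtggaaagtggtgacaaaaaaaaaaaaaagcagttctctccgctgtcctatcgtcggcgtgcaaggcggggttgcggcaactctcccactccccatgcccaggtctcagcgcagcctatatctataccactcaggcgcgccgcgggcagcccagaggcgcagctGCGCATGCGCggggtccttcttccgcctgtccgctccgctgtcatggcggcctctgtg

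In these windows the capitals are an NRF1 motif at −81 in Mrpl12 and at −28 in Mrpl9, a YY1 motif at 12 in Mrps18a, an ETS motif at −11 in Mrps22 and at −90 in Mrpl51, and an E-box at −131 in Mrpl2, counted from the start to the first base of the match. An NRF1 motif (GCGC, any base, TGCGC) was found for 13 members (18.8%), beside 12.4% of the 9103 tested genes with a promoter and 5.2% of all 27025 genes with one. CCGGAAGT, read by ETS family factors, was found for 12 members (17.4%), beside 9.9% of tested genes and 4.3% of all genes. AAGATGGCG, read by YY1, was found for 8 members (11.6%), beside 3.9% of tested genes and 1.6% of all genes. CACGTG, the E-box read by MYC and its relatives among others, was found for 5 members (7.2%), beside 12.0% of tested genes and 8.1% of all genes.

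The NRF1 motif was held by 7 of the 44 fallen members with a promoter and 6 of the 25 uncalled ones, and the E-box by 1 of 44 and 4 of 25. The ETS motif was held by 9 of 44 and 3 of 25, and the YY1 motif by 5 of 44 and 3 of 25. These are descriptions of letters in fixed windows, the motifs do not overlap in the 6 windows shown, and no differences between motif classes were tested.

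The large subunit has 51 of these genes, counting Mrps18a and Mrps30, whose proteins sit in it. Of these 32 fell (62.7%) and 0 rose, beside 26.6% and 27.0% of all genes tested. Their median log2 fold change was −0.35, beside 0.01 for all genes tested. The small subunit has 26, of which 19 fell (73.1%) and 0 rose, with a median of −0.38. In 24 of the 26 the dox libraries all lay below the untreated ones, as in 31.0% of all genes tested. Members with a counterpart in the bacterial ribosome fell in 32 of 48 cases (66.7%, median −0.38) and those listed without one in 19 of 29 (65.5%, median −0.34). Neither subunit nor ancestry was tested against the other.

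Among the stalk proteins of the large subunit, which recruit the translation factors, Mrpl12 fell most. Mrpl12 (Entrez Gene 56282, chromosome 11) had 55.4, 51.9 and 58.5 CPM in the dox libraries, against 106.5, 82.4 and 89.2 CPM in the untreated libraries. The groups did not overlap, with a log2 fold change of −0.75 (SE 0.10, adjusted p = 0.000306). The noncoding gene Gm16755 shares 200 of its exon bases on the other strand, and without a known strand setting reads of this pair cannot be told apart. Mrpl11, at the stalk base, had 40.5, 35.5 and 48.6 CPM in the dox libraries, against 53.3, 52.3 and 52.9 CPM in the untreated libraries (log2 fold change −0.35, SE 0.11, adjusted p = 0.0226). Dox library 3 lay closest to the untreated libraries, and adjusted p was 0.0659 without dox library 1 and 0.0550, 0.0531 and 0.0576 without untreated libraries 1, 2 and 3. Mrpl10, the anchor of the stalk, had 61.0, 56.9 and 64.0 CPM in the dox libraries, against 58.5, 60.8 and 63.2 CPM in the untreated libraries, and the groups overlapped (log2 fold change −0.0035, adjusted p = 0.972; 0.0398 without dox library 2 and 0.021 without untreated library 3).

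Members at the peptidyl transferase region, where peptide bonds form, fell in 3 of 4 cases, beside 26.6% of all genes tested. Mrpl2 (Entrez Gene 27398, chromosome 17) had 35.8, 34.3 and 38.9 CPM in the dox libraries, against 57.0, 52.2 and 53.7 CPM in the untreated libraries. All dox libraries were below all untreated ones, with a log2 fold change of −0.58 (SE 0.078, adjusted p = 0.00027). Mrpl3 had 56.9, 58.8 and 59.3 CPM in the dox libraries, against 72.0, 73.5 and 69.7 CPM in the untreated libraries (log2 fold change −0.30, SE 0.067, adjusted p = 0.00458). Mrpl16 averaged 29.8 ± 0.834 CPM in the dox libraries and 36.5 ± 2.68 CPM in the untreated libraries (SD, n = 3 each; edgeR adjusted p = 0.0128), and without untreated library 2 its adjusted p was 0.0506. Mrpl4 averaged 33.6 ± 2.43 CPM in the dox libraries and 35.0 ± 0.287 CPM in the untreated libraries (SD, n = 3 each), with overlapping groups and a log2 fold change of −0.06 (SE 0.078, edgeR adjusted p = 0.567), or −0.11 without dox library 1 and −0.0088 without dox library 3.

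Further large subunit members with the deepest falls were Mrps18a and Mrpl51, and Mrpl15 had one of the smallest p-values. Mrps18a (Entrez Gene 68565, chromosome 17) had 35.1, 38.6 and 35.2 CPM in the dox libraries, against 59.5, 57.6 and 56.2 CPM in the untreated libraries. Its groups were far apart relative to their spread, with a log2 fold change of −0.67 (SE 0.073) and the smallest adjusted p of all members, 8.26e-05. Mrpl51 (Entrez Gene 66493, chromosome 6), without a counterpart in the bacterial ribosome, had 24.4, 23.4 and 25.6 CPM in the dox libraries, against 35.0, 40.1 and 34.5 CPM in the untreated libraries (log2 fold change −0.58, SE 0.087, adjusted p = 0.000513). Untreated library 2 was the highest and no library of one group entered the range of the other. Mrpl15 had 42.7, 39.6 and 43.3 CPM in the dox libraries, against 61.9, 60.9 and 63.0 CPM in the untreated libraries (log2 fold change −0.56, SE 0.070, adjusted p = 0.000172).

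At the tunnel exit, where the new chain leaves the large subunit, 0 of 3 members passed the threshold, beside 53.6% of all genes tested. Mrpl24 had 42.4, 44.6 and 38.0 CPM in the dox libraries, against 48.4, 46.0 and 48.0 CPM in the untreated libraries. The groups did not overlap, and the log2 fold change was −0.19 (adjusted p = 0.0738). When 1 library was left out it ran from −0.24 (adjusted p = 0.0352, without dox library 2) to −0.13 (adjusted p = 0.178, without dox library 3). Rrnad1 shares 594 exon bases with Mrpl24 on the opposite strand, so without a known strand setting the values of Mrpl24 are uncertain. Mrpl45, which anchors the ribosome to the inner membrane, had 34.7, 38.7 and 41.4 CPM in the dox libraries, against 43.1, 41.2 and 43.6 CPM in the untreated libraries, with overlapping groups (log2 fold change −0.16, adjusted p = 0.142). It stood at −0.09 (adjusted p = 0.441) without dox library 1, and was called with an offset for gene length (−0.23, adjusted p = 0.0446). Mrpl23 was the least counted member, with 86 counts over all 6 libraries, at 0.658, 0.905 and 0.576 CPM in the dox libraries and 1.54, 0.872 and 1.29 CPM in the untreated libraries. Its log2 fold change of −0.79 carried an SE of 0.35 and an adjusted p of 0.0872, and dox library 2 exceeded untreated library 2. Mrpl58, a peptidyl-tRNA hydrolase built into the large subunit that rescues stalled ribosomes, fell to 25.1, 24.3 and 24.8 CPM in the dox libraries, against 32.4, 33.1 and 37.0 CPM in the untreated libraries (log2 fold change −0.47, SE 0.082, adjusted p = 0.0012).

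In the small subunit, the members listed for the decoding site and the messenger RNA channel all fell, 4 of 4, beside 26.6% of all genes tested. Mrps5 (Entrez Gene 77721, chromosome 2) lines the messenger entry channel and had 19.4, 20.0 and 20.1 CPM in the dox libraries, against 32.9, 30.3 and 32.0 CPM in the untreated libraries. The dox libraries lay close together and well below the untreated ones, at a log2 fold change of −0.68 (SE 0.079, adjusted p = 0.000114). Mrps12, at the decoding centre, had 21.3, 19.6 and 17.9 CPM in the dox libraries, against 28.5, 26.0 and 26.3 CPM in the untreated libraries (log2 fold change −0.46, SE 0.095, adjusted p = 0.00289). Mrps2 averaged 37.4 ± 1.65 CPM in the dox libraries and 50.4 ± 3.42 CPM in the untreated libraries (SD, n = 3 each; log2 fold change −0.43, edgeR adjusted p = 0.00155). Mrps7, in the subunit's head, had the shallowest fall of the 4, at 50.6 ± 1.41 CPM in the dox libraries and 61.0 ± 2.97 CPM in the untreated libraries (SD, n = 3 each; log2 fold change −0.27, edgeR adjusted p = 0.0106).

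The deepest fall of any called member was that of Mrps18b, and Mrps22 and Mrps10 were also among the 8 deepest. Mrps18b (Entrez Gene 66973, chromosome 17) had 6.19, 6.20 and 6.85 CPM in the dox libraries, against 12.7, 10.3 and 12.0 CPM in the untreated libraries. Its mean dox level was 54.9% of its untreated level, with no overlap and a log2 fold change of −0.86 (SE 0.14, adjusted p = 0.000718), and the antisense gene Gm16279 shares 638 of its exon bases. Mrps22 (Entrez Gene 64655, chromosome 9), without a counterpart in the bacterial ribosome, had 26.2, 21.8 and 30.3 CPM in the dox libraries, against 42.4, 39.9 and 39.1 CPM in the untreated libraries. The dox libraries spread more than the untreated ones and still lay below them (log2 fold change −0.63, SE 0.11, adjusted p = 0.00144). Mrps10 (Entrez Gene 64657, chromosome 17), a protein of the subunit's head, had 10.9, 11.5 and 10.6 CPM in the dox libraries, against 16.4, 15.5 and 17.5 CPM in the untreated libraries (log2 fold change −0.58, SE 0.11, adjusted p = 0.00152).

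Mammals have 3 paralogs of the bacterial S18 protein, and they occupy different places: Mrps18a in the large subunit, and Mrps18b and Mrps18c in the small one. Mrps18a and Mrps18b fell, as given above. Mrps18c, the paralog at the site of bacterial S18, had 21.5, 16.01 and 25.0 CPM in the dox libraries, against 27.7, 24.4 and 26.2 CPM in the untreated libraries. Dox library 3 lay within the untreated range, at a log2 fold change of −0.32 (SE 0.15, adjusted p = 0.0934), or −0.48 (adjusted p = 0.0241) without that library and −0.16 (adjusted p = 0.229) without dox library 2. The differences between the paralogs were not tested. Mrps36, now known as a component of the oxoglutarate dehydrogenase complex and no longer counted as a ribosomal subunit, had 13.6, 11.5 and 14.2 CPM in the dox libraries, against 16.4, 15.5 and 15.8 CPM in the untreated libraries (log2 fold change −0.28, SE 0.11, adjusted p = 0.0636). The groups of Mrps36 did not overlap, and its log2 fold change was −0.35 (adjusted p = 0.0484) without dox library 3 and −0.20 (adjusted p = 0.19) without dox library 2. Pseudogenes named after Mrpl23, Mrpl27, Mrpl48 and Mrps36 exist, 6 in all, so reads of those 4 genes may be shared with near-identical copies and their values are uncertain.

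Of the 4 members with a positive fold change, none was called. Mrpl9 had 78.6, 72.3 and 83.7 CPM in the dox libraries, against 77.1, 71.9 and 72.6 CPM in the untreated libraries (log2 fold change 0.08, SE 0.077, adjusted p = 0.396), and the groups overlapped. Mrpl43 averaged 60.3 ± 5.04 CPM in the dox libraries and 57.0 ± 4.23 CPM in the untreated libraries (SD, n = 3 each; edgeR adjusted p = 0.465). Mrpl43 shares 507 exon bases with Twnk on the opposite strand, the gene of the mitochondrial DNA helicase, which itself fell (log2 fold change −0.78, adjusted p = 8.43e-05). Mrpl9 shares 157 exon bases with Oaz3, also on the opposite strand. Mrpl49 and Mrpl32 stood at log2 fold changes of 0.07 (adjusted p = 0.497) and 0.00 (adjusted p = 0.992). Exons of 20 members overlap a protein-coding gene on the opposite strand, and 14 of these fell (median log2 fold change −0.35). Without a known strand setting the values of these 20, Mrpl18, Mrpl24, Mrpl36 and Mrps7 among them, are uncertain. Of the 47 members with no exon overlap 29 fell (median −0.35), and 26.6% of all genes tested fell.

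**Figure D2:**
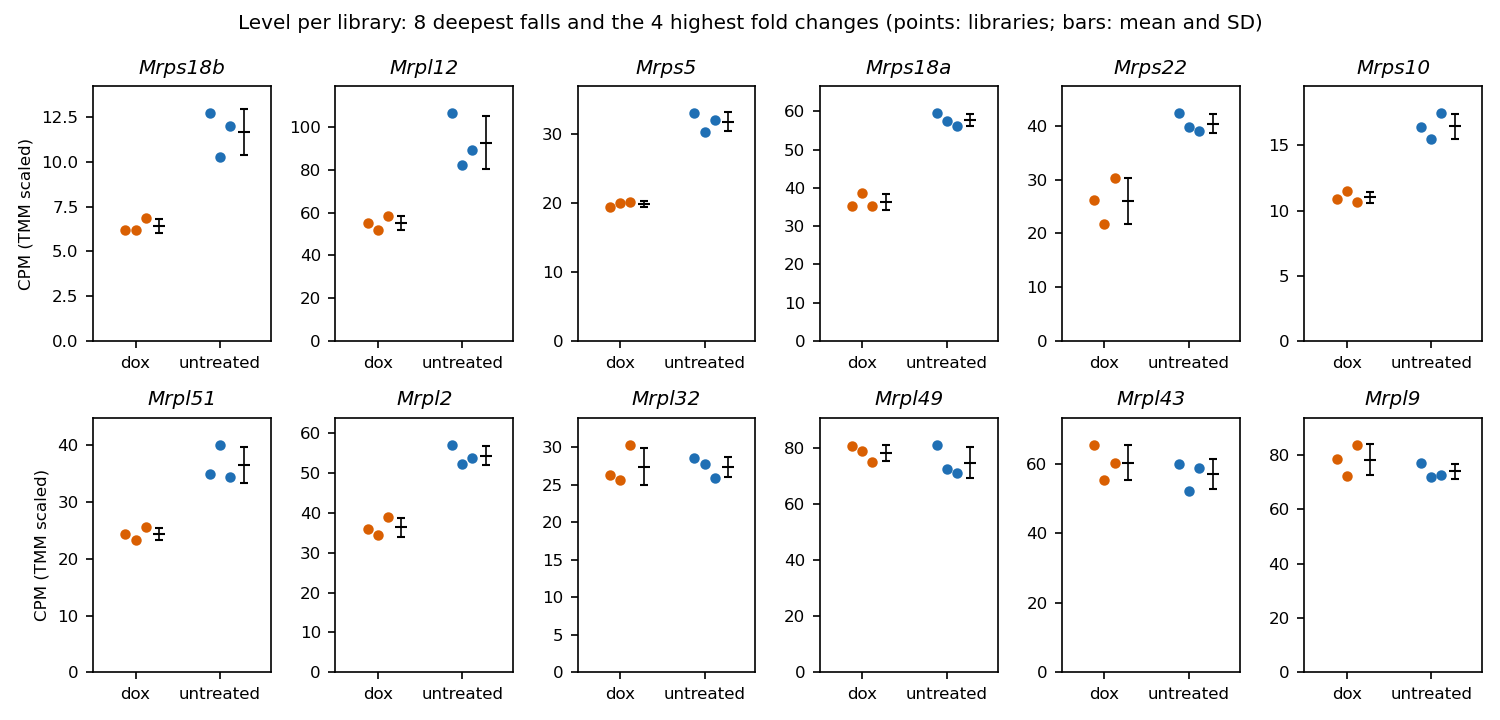
Levels (y axis, TMM-scaled CPM) of the 8 called members with the deepest falls and of the 4 members with the highest fold changes in each dox library (left in each panel) and each untreated library (right). Points are libraries and bars the mean with its SD, and in the 8 deepest the groups do not overlap while in the last 4 panels they do.

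Levels of different genes are compared per kilobase of gene length, in CPM per kb. Over the 78 members the median level was 26.2 CPM per kb in the dox libraries and 32.9 CPM per kb in the untreated libraries, with ranges of 1.23 to 98.4 and 2.12 to 101.6 CPM per kb. Averaged over all 6 libraries, the 4 highest levels were those of Mrps21, a small subunit protein with a bacterial counterpart (98.4 ± 11.3 CPM per kb in the dox libraries and 101.6 ± 8.39 in the untreated libraries, SD, n = 3 each), and of Mrpl18, Mrpl52 and Mrpl12, and the order below Mrps21 differs between the groups: Mrpl20, at 67.8 CPM per kb in the dox libraries and 83.2 in the untreated libraries, was above Mrpl52 and Mrpl12 in the dox libraries only. Mrpl18 averaged 68.1 ± 5.14 CPM per kb in the dox libraries and 101 ± 3.50 in the untreated libraries (SD, n = 3 each; log2 fold change −0.56, edgeR adjusted p = 0.000293), and Mrpl52 averaged 65.4 ± 2.09 and 93.2 ± 3.23 CPM per kb in these groups (log2 fold change −0.51, edgeR adjusted p = 0.000389). Mrps21 was not called (log2 fold change −0.05, adjusted p = 0.731), and its value ran from −0.13 without dox library 1 to 0.0386 without dox library 2. The lowest levels were those of Mrpl23 at 1.23 ± 0.294, Mrpl36 at 3.44 ± 0.329 and Mrps25 at 4.18 ± 0.287 CPM per kb in the dox libraries, against 2.12 ± 0.578, 4.38 ± 0.935 and 5.58 ± 0.332 CPM per kb in the untreated libraries (SD, n = 3 each). Of these, Mrps25 fell (log2 fold change −0.42, SE 0.086, adjusted p = 0.00301), while Mrpl36 did not pass (log2 fold change −0.35, SE 0.22, adjusted p = 0.216), at −0.51 (adjusted p = 0.0765) without untreated library 1 and −0.22 (adjusted p = 0.513) without untreated library 2. Mrps25, with a gene length of 6076 bases, shares 4590 exon bases with Nr2c2 on the opposite strand. Without a known strand setting the level and the fall of Mrps25 are uncertain.

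Across the 78 members, Pearson's correlation of the log2 fold change with the log2 level per kb was 0.27 and with log2 gene length 0.01, given as descriptions since the genes share the 6 libraries. The median coefficient of variation over the members was 7.43% among the dox libraries and 5.31% among the untreated libraries.

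**Figure D3:**
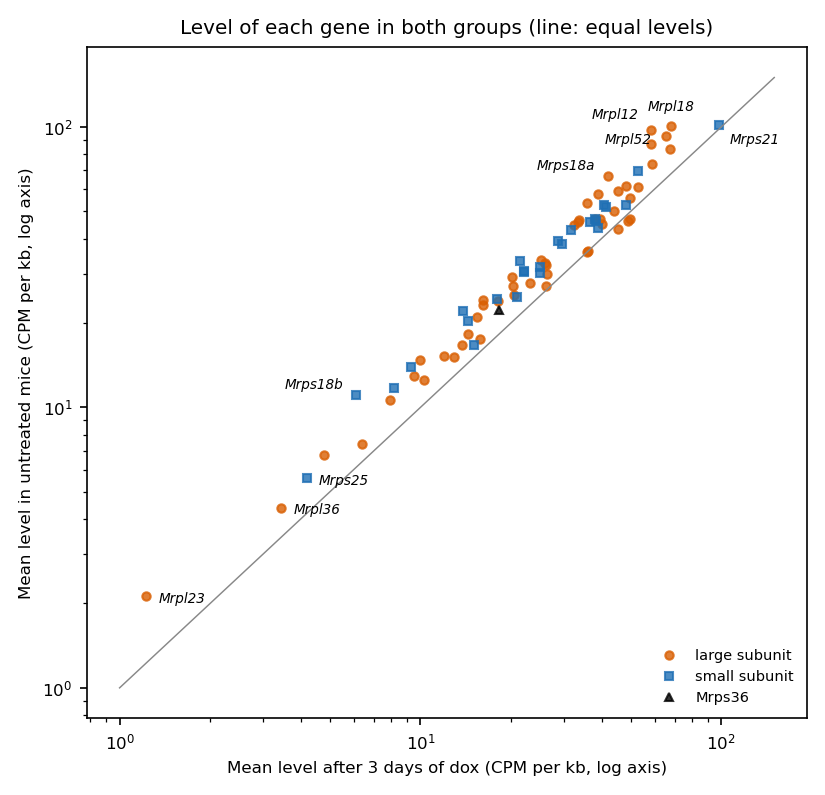
Mean level of each member in the dox libraries (x axis) and in the untreated libraries (y axis), in CPM per kb of gene length on log axes, with large subunit genes as circles, small subunit genes as squares and Mrps36 as a triangle. Points above the line are lower in the dox libraries, as for Mrps18b at 6.09 and 11.1 CPM per kb, and Mrps21 lies next to the line.

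Many of these genes start back to back with another gene. Of the 78 members, 18 (23.1%) have a protein-coding gene starting on the other strand within 1000 bases and not overlapping them in the GENCODE annotation of GRCm38, beside 1221 of 10701 tested genes (11.4%). Of the 17 partners tested, 6 fell, 6 rose and 5 were not called, beside 26.6% of all genes tested falling and 27.0% rising, with a median log2 fold change of 0.14. Mrps18b and Ppp1r10, a regulatory subunit of protein phosphatase 1, start 45 bases apart, and Ppp1r10 rose (log2 fold change 0.35, adjusted p = 0.00277) while Mrps18b fell. Mrpl2 and Klc4, a kinesin light chain, start 207 bases apart, and Klc4 rose by 0.86 on the log2 scale (adjusted p = 0.000237). Mrpl51 and Ncapd2, a condensin subunit, start 100 bases apart and both fell, Ncapd2 by 1.05 on the log2 scale (adjusted p = 6.21e-05). In 4 pairs both genes fell, and in 4 pairs the member fell and the partner rose. The other 2 pairs with opposite calls were Mrpl41 with Pnpla7 (partner log2 fold change 0.83) and Mrps34 with Eme2 (0.54).

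**Figure D4:**
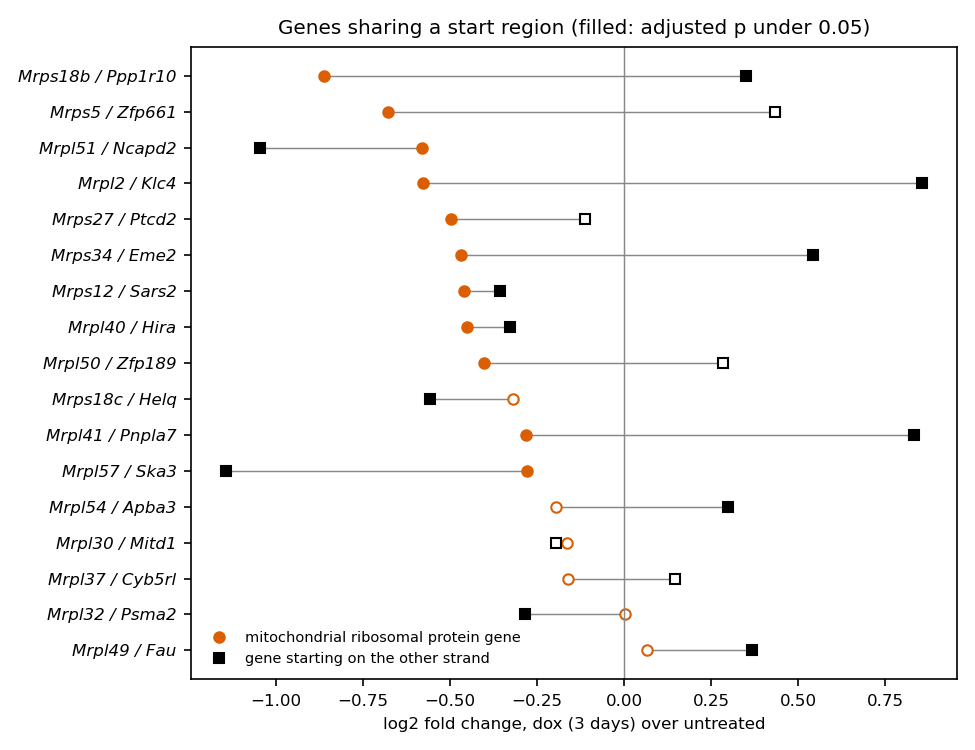
Log2 fold change, dox over untreated (x axis), of 17 members (circles) and of the gene starting on the other strand (squares), with 1 pair in each row. Filled symbols passed an adjusted p of 0.05, and the partners lie on both sides of 0 while the members lie below it in all but the last 2 pairs.

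By chromosome, the members were most numerous on chromosome 11, where 5 of 11 fell beside 28.3% of the genes tested there, and on chromosome 17, where 8 of 8 fell (median log2 fold change −0.57) beside 23.9%. The 8 on chromosome 17 include Mrps18b, Mrps18a, Mrps10 and Mrpl2. No difference between chromosomes was tested.

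Of the genes for mitochondrial ribosomal proteins that carry other symbols, 4 of 5 fell and 0 rose (26.6% and 27.0% of all genes tested), with a median log2 fold change of −0.39. Ptcd3 (log2 fold change −0.43, adjusted p = 0.00159), Chchd1 (−0.43, adjusted p = 0.0089), Gadd45gip1 (−0.39, adjusted p = 0.00341) and Aurkaip1 (−0.29, adjusted p = 0.0158) fell. Dap3, a small subunit GTPase, had 59.2, 55.9 and 59.8 CPM in the dox libraries, against 61.6, 54.9 and 59.3 CPM in the untreated libraries, and overlapped (log2 fold change −0.01, adjusted p = 0.939). With a required change of more than 1.2-fold, 1 of the 5 was called lower, beside 16.9% of all genes tested.

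Of the 32 ribosome assembly genes 14 fell (43.8%) and 3 rose (9.38%), beside 26.6% and 27.0% of all genes tested, with a median log2 fold change of −0.18. With a required change of more than 1.2-fold, 8 fell and 0 rose, beside 16.9% and 17.1% of all genes tested. C1qbp, a mitochondrial RNA-binding protein, had 92.5, 104.8 and 107 CPM in the dox libraries, against 181.5, 184 and 183.5 CPM in the untreated libraries (log2 fold change −0.85, SE 0.073, adjusted p = 2.42e-05). Tfb1m, a ribosomal RNA methyltransferase, fell by 0.76 on the log2 scale (adjusted p = 0.000205) and Mrm1, another, by 0.58 (adjusted p = 0.000816). Ngrn, Nsun4 and Rpusd4 rose, at 0.32 (adjusted p = 0.00486), 0.40 (adjusted p = 0.00567) and 0.21 (adjusted p = 0.0261) on the log2 scale. Of 23 genes for mitochondrial transcription, RNA handling and DNA copying, Twnk among them, 10 fell (43.5%) and 1 rose (4.35%), with a median of −0.17. Twnk, Rexo2, an exonuclease of short RNAs, and Supv3l1, a helicase, fell (log2 fold changes −0.78, −0.71 and −0.49, adjusted p = 8.43e-05, 0.000127 and 0.000411), while Mterf2, a transcription regulator, rose by 0.66 (adjusted p = 0.000704). Of 17 genes for translation factors and related proteins 5 fell (29.4%, near the 26.6% of all genes tested) and 0 rose, with a median of −0.08. Among the 17, 1 was higher at an unadjusted p under 0.05 by edgeR and by limma voom and 0 by DESeq2. At the stricter adjusted p, 27.0%, 26.6% and 24.8% of all genes tested were higher by these tests, in that order. The 5 were Tsfm (−0.64), Lrpprc (−0.52), Gfm1 (−0.47), Tufm (−0.45) and Mtrf1 (−0.36).

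Cytosolic ribosomal protein genes, set beside them as the other ribosome of the cell, were called in few cases, with 6 of 72 tested falling and 6 rising (8.33% each, beside 26.6% and 27.0% of all genes tested) and a median log2 fold change of −0.03. Without dox library 1, 2 fell, beside 23.5% of all genes tested. Without untreated library 2, 3 fell and 3 rose, beside 22.4% and 21.6%, and without untreated library 3, 3 fell, beside 22.4%. With a required change of more than 1.2-fold, 0 fell and 1 rose, beside 16.9% and 17.1%. Their largest changes were Rps24 (0.70, adjusted p = 0.000329) upward and Rps2 (−0.40, adjusted p = 0.00628) downward, and counts for this family are uncertain because many processed pseudogenes exist. No difference between the lists was tested. The genes encoded in mitochondrial DNA were not analysed here.

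**Figure D5:**
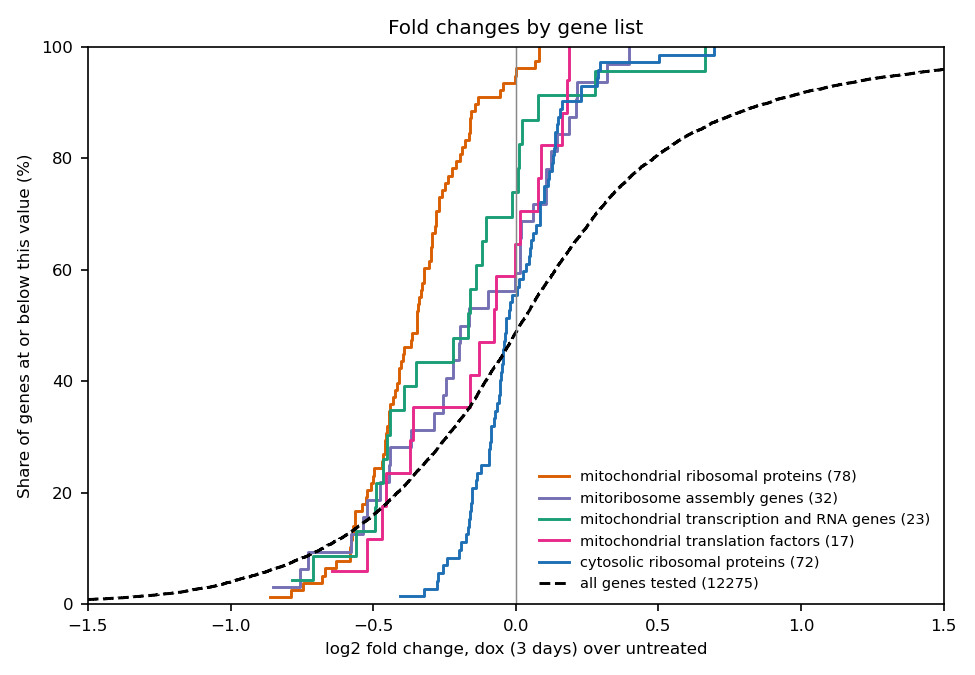
Share of genes at or below each log2 fold change, dox over untreated (x axis), for 5 gene lists and for all 12275 genes tested (dashed line, which continues beyond the plotted range). The line of the 78 mitochondrial ribosomal protein genes lies left of 0 for all but 4 genes, and that of the cytosolic ribosomal protein genes crosses 50% near 0.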

How the data were processed

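Whole-number read counts per gene were deposited by the authors, with Entrez identifiers and gene lengths, in 1 series table whose 6 columns matched the 6 per-sample files. The submitters' processing notes name CASAVA 1.8.2, featureCounts and the build mm9. Aligner, annotation and strandedness: not given in the sources used here. Of 26286 identifiers, 24176 matched a symbol in RefSeq tables of GRCm38.p6, which served for names, chromosomes and promoters only. Neighbours and exon overlaps came from the GENCODE annotation of GRCm38.

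The low-count filter (filterByExpr, minimum count 10) left 12275 genes holding 99.93% of counts. Counts were scaled by TMM (factors 0.991 to 1.01) and compared with edgeR 4.0.16 (quasi-likelihood test, R 4.3.3), two-sided, with no covariates and Benjamini-Hochberg adjustment over all genes tested. SE is the absolute log2 fold change over the square root of F. SDs are over 3 libraries. The fit was tested on simulated counts. DESeq2 1.42.0 and limma 3.58.1 voom served as alternatives.

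The members and lists were chosen with earlier results of these data known. The text names Pax5, the members with the 8 largest falls, the 4 smallest p-values, the 4 highest and 3 lowest levels per kb and set structural roles, the Mrps18 paralogs, Mrps36 and the leading genes of other lists. The positive members, neighbours, exon overlaps, chromosomes, the promoters shown and Rps24 and Rps2 were chosen after their values were seen. Of 139 list and marker entries 123 matched.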

Additional observations from a re-analysis of the deposited data

How the results depend on the processing

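Members called lower numbered 51, and 0 were called higher under any setting tried. In brackets is the share of all genes tested that were lower under the same setting. DESeq2 size factors and total counts alone gave 51 (26.8% each), upper-quartile factors 47 (25.0%), voom 49 (26.6%) and the DESeq2 test 50 (25.3%). No filter gave 55 (19.8%), and leaving out 1 library 44 to 57 (22.4% to 25.7%). The median log2 fold change of members ran from −0.41 to −0.32 when 1 library was left out. With a replicate block 54 were lower (27.3%), 50 of them shared with the fit without it. Deviations from the group means correlated at 0.305, 0.288 and −0.037 between same-numbered libraries 1, 2 and 3. The largest correlations with another number were 0.003, 0.025 and 0.02. The same-numbered value was thus the higher one for numbers 1 and 2 and not for number 3. Deviations from a group mean cancel within the group, so these correlations are not independent. Whether the numbers mark pairs was not tested, and the labels do not state a pairing. A length offset gave 54, and moved the split of all genes to 31.9% lower and 22.0% higher, with an all-gene median of −0.06.

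With a minimum fold change of 1.2 (glmTreat), 32 members were lower, with 20 in the large and 12 in the small subunit. Of the other lists, 8 assembly genes were lower and 0 higher, 1 other-symbol protein was lower, and 0 cytosolic genes were lower and 1 higher. These counts stand beside 16.9% of all genes lower and 17.1% higher. Cytosolic genes lower numbered 3 with the length offset, beside 31.9% of all genes. When 1 library was left out, 2 to 9 were lower and 3 to 6 higher, beside 22.4% to 25.7% and 21.6% to 25.5% of all genes. Under upper-quartile factors 1 translation factor, Gfm2, was higher. The log2 fold change of Mrpl10 changed sign to 0.0011 with a 1 CPM minimum and 0.0223 under upper-quartile factors, and ran from −0.0508 to 0.0398 when 1 library was left out, with positive values without dox library 2 (0.0398) and untreated library 3 (0.021). That of Mrps21 ran from −0.1271 to 0.0386, positive without dox library 2. Among 475 values of the 28 members named by rule under alternatives, 454 kept direction and call, 9 lost the call, 7 gained it and 5 changed sign. The cause was not tested. Depth limits Mrpl23, at 86 counts in all.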
